A study of Mus musculus with 2 samples.

Results

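Dynap, whose protein is named for its association with dynactin, was described here together with the dynactin complex and the heavy chain of cytoplasmic dynein. The 10 genes are Dynap, Dctn1, Dctn2, Dctn3, Dctn4, Dctn5, Dctn6, Actr1a, Actr1b and Dync1h1, out of 30698 genes named on the arrays, and they were taken as every array row that carries 1 of these symbols. Of the 10, 9 had a row and passed the low-signal filter, and no row was named for Actr1b. Dynap entered the group because its difference between the arrays was known to be large, so the injured and uninjured values below are a description and no test stands behind them. RNA came from the corneal epithelium of C57BL/6 mice of both sexes at 8 weeks of age. Under ketamine and xylazine anaesthesia the whole depth of the epithelium was scraped off with a 0.5 mm rust ring remover, as far as the limbal edge. The injured sample is the epithelium that had regrown after about 48 hours, with 10% of the wound still bare, and the uninjured sample is the epithelium of the fellow eyes of these mice, which shared the anaesthesia and the wounded animal. Each condition has 1 array, how many mice it stands for is not stated by the sources at hand, and so no difference has a replicate check.

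Cytoplasmic dynein is the motor that carries vesicles, organelles and nuclei along microtubules towards their minus ends, and it also works at the cell cortex and on kinetochores in mitosis. Dynactin is the large complex that joins dynein to its cargo and makes it processive: a filament of the actin-related protein Arp1, a sidearm that reaches the motor and the microtubule, and a pointed-end cap that helps to select cargo. In epithelia this motor positions the Golgi and the spindle and orients the microtubules of moving cells. The Dynap protein is a membrane protein reported in human cells to bind dynactin and to raise the activity of the kinase AKT.

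Dynap was by far the most different of the group. Its deposited log2 intensity was 4.93 in the uninjured and 12.13 in the injured array, a difference of 7.20, or 147-fold. It ranked 1, highest, among the differences of the 19512 genes that passed the low-signal filter. The lowest of these differences was -7.49, which is farther from 0 than that of Dynap. The filter asks that at least 1 of the 2 values reach 5.44, which is the median over the deposited table. Dynap passed through its injured value alone, and the uninjured value lay below that level, so the size of the difference depends on how a dim signal is read. With the uninjured value raised to the level, a choice made after the values were seen, the difference was 6.69 (104-fold), and with 16 added on the linear scale before the log2 step it was 6.60 (96.8-fold). The gene nearest to Dynap in difference was Ppbp, the precursor of a neutrophil-attracting chemokine, at 7.19. The next 4 were the small proline-rich envelope genes Sprr2b (5.55), Sprr2f (5.53) and Sprr1b (5.30) and the protease inhibitor Serpinb2 (5.18). Ppbp stayed at 7.19 with dim values raised and was 6.84 with 16 added. Under both settings it lay above Dynap (6.69 and 6.60), so which of these genes ranks first is not settled. Sprr2f (4.53 uninjured) and Serpinb2 (5.04) likewise passed through the injured value alone, and with dim values raised they differed by 4.63 (24.7-fold in place of 46.4-fold) and 4.79, so the order below Sprr2b is not settled. This likeness is one of a single difference between 2 arrays. Within 0.1 of the difference of Dynap there was 1 other gene, and between 1042 and 5524 for each of the other measured members. Since Dynap was chosen for its large difference, this contrast is not a result. In bulk tissue, more cells that hold a transcript and more transcript per cell cannot be told apart.

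**Figure D1:**
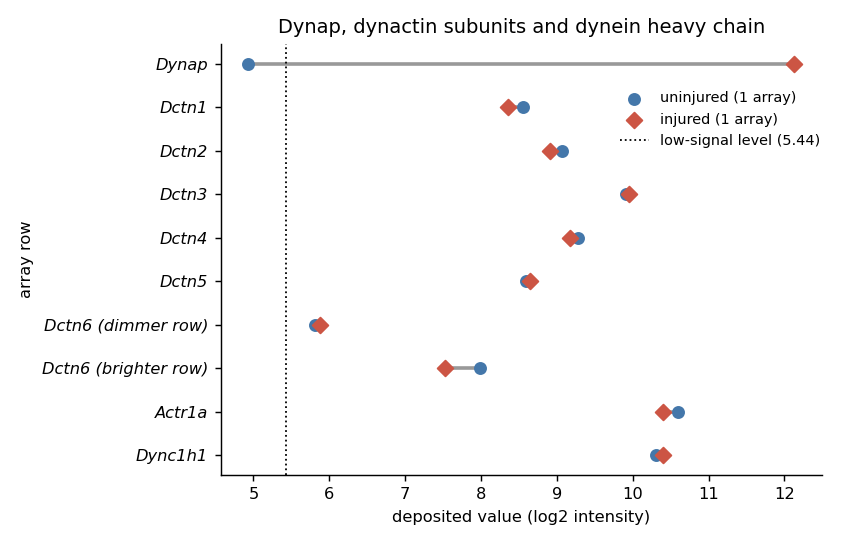
Deposited log2 intensity (horizontal axis) of each array row of the group in the uninjured array (circles) and the injured array (diamonds), joined by a line, with the low-signal level dotted. Dynap runs from 4.93 to 12.13, whereas the paired points of the dynactin subunits and of Dync1h1 lie next to each other, and the brighter Dctn6 row shows the widest of these gaps.

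The sidearm subunits of dynactin were less than 2-fold apart. Dctn1, which encodes the large subunit that grips the microtubule and the dynein intermediate chain, had a log2 intensity of 8.56 in the uninjured and 8.36 in the injured array, a difference of -0.20 (1.15-fold lower). Dctn2, the dynamitin subunit that holds sidearm and filament together, went from 9.07 uninjured to 8.91 injured, a difference of -0.16. For Dctn3, the small shoulder subunit, the values were 9.91 and 9.95, a difference of 0.05. The 3 genes therefore did not share a direction, and each was at most 1.15-fold apart.

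The filament genes were less than 2-fold apart as well. Actr1a, the main Arp1 isoform of the filament, was 10.60 in the uninjured and 10.40 in the injured array, a difference of -0.19 (1.14-fold lower). The capping proteins that close the filament's barbed end, and which also cap ordinary actin filaments, gave differences of 0.25 for Capza1, -0.08 for Capza2 and -0.10 for Capzb. Capza1 had values of 10.13 uninjured and 10.38 injured, the highest difference of the complex. It was the one filament gene beyond the SD of 0.242 between rows of the same gene given below, and only narrowly. With equal medians (0.24) and with quantile normalization (0.19) it lay under that SD.

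At the pointed end, Dctn4 had values of 9.28 uninjured and 9.18 injured, a difference of -0.10. Dctn5, one of the small pointed-end subunits, was 8.59 and 8.65, a difference of 0.06. Its partner Dctn6 was measured by 2 rows that disagreed. The brighter row, which stands for the gene, gave 7.99 uninjured and 7.53 injured, a difference of -0.46 (1.37-fold lower), and the dimmer row gave 5.82 and 5.87, a difference of 0.06. The rows are 0.52 apart in their difference, and their mean is -0.20, so the lower value of Dctn6 rests on 1 row. No row was named for Actr10, the Arp11 subunit of the pointed end.

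Dync1h1, the heavy chain that carries the motor domain of cytoplasmic dynein, was 10.31 in the uninjured and 10.40 in the injured array, a difference of 0.09 (1.07-fold higher). Apart from Dynap, the 8 measured members ran from -0.46 to 0.09 with a median of -0.13, with 3 higher and 5 lower in the injured array. Among all 19512 measured genes 11394 were higher and 7962 lower, with a median of 0.06. The only error that 2 arrays offer is how far separate rows for the same gene disagree, and the SD of their log2 differences was 0.242 over 542 rows of 256 genes. Of these 8 members 7 differed by less than that SD, as did 53.4% of all measured genes, and Dctn6 differed by more. The SD says nothing about the spread between animals.

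**Figure D2:**
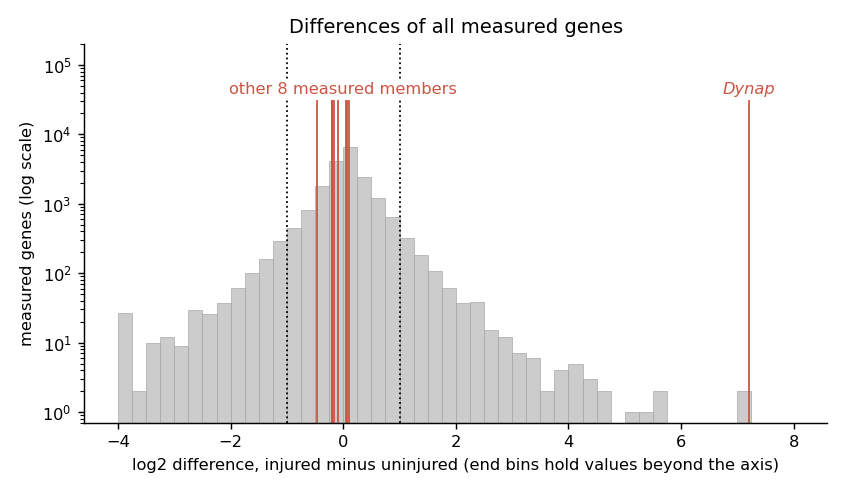
Number of measured genes (vertical axis, log scale) by log2 difference, injured minus uninjured, in bins of 0.25, with red lines at the 9 measured members and dotted lines at 2-fold. The 8 members other than Dynap fall between -0.46 and 0.09 in the central peak, and Dynap stands at 7.20 in the last occupied bin. The first bin also holds the differences below the axis, down to -7.49.

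Counted at 2-fold, 1 of the 9 measured members was higher in the injured array (Dynap) and 0 were lower. Among all measured genes, 4.14% were higher by 2-fold or more, 3.92% were lower by as much, and 8.06% passed 2-fold in either direction. Since Dynap was chosen by this contrast, its share of the group is not a result. Of the 12 genes on a list of dynactin subunits, which adds Actr10 and the capping proteins, 10 were measured, 0 of 10 were 2-fold apart, and the median difference was -0.10 beside 0.06 for all measured genes. Of all measured genes 73.4% were no farther from 0 than Dctn6, so values this close are common on these arrays.

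For 7 of the 10 members the RefSeq promoter table used here (GRCm38.p6) has an entry, 250 bases before to 50 after a start of transcription, with 8 promoters in all because Dctn1 has 2. The starts holding the fewest and the most CG dinucleotides are shown: Dctn1 at chr6:83179339-83179638 on the + strand with 3, and Dync1h1 at chr12:110601145-110601444 on the + strand with 30. Capitals mark each CG.
Dctn1: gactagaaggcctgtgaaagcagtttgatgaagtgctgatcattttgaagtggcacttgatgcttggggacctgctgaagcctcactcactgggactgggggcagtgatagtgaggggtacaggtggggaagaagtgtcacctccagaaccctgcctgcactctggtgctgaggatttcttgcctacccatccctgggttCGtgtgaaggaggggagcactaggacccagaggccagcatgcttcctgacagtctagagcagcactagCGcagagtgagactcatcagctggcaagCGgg
Dync1h1: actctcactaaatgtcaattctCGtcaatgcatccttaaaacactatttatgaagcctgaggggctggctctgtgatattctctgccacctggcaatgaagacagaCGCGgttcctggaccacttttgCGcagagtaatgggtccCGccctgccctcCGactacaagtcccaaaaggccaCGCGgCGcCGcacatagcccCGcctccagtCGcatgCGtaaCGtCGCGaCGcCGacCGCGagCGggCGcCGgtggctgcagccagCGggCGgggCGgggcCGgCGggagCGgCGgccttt
The median over the table's 32851 promoters was 7 such dinucleotides. The second start of Dctn1 held 7, Dctn2 11, Dctn3 15, Actr1a 17, Dctn5 22 and Actr1b 26. A TATA box (TATAAA, either strand) was found in 0 of the 8 promoters and in 13.6% of all, a CCAAT box (CCAAT, either strand) in 5 of the 8 and 37.4% of all, and a GC box (GGGCGG, either strand) in 3 of the 8 and 35.7% of all. These are matches of letters in a window, and the files used here give no promoter of Dynap to set beside them.

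The other chains of cytoplasmic dynein were also less than 2-fold apart, between -0.32 and 0.22. Of 14 genes on the list, which includes Dync1h1, 9 were measured and 0 of 9 were 2-fold apart, beside 8.06% of all measured genes. The median difference was -0.13, beside 0.06 for all measured genes. In the injured array 7 of 9 were lower, beside 7962 of 19512 measured genes. The intermediate chain Dync1i2, which binds the dynactin sidearm, differed by -0.13, and the light intermediate chains Dync1li1 and Dync1li2, which bind cargo adaptors, by 0.22 and -0.11. The roadblock light chains Dynlrb1 (-0.32) and Dynlrb2 (-0.32) and the small light chain Dynll2 (-0.31) were the lowest, while Dynll1 differed by -0.04 and the Tctex-type chain Dynlt3 by -0.21. Dynlrb2 was dim (5.80 uninjured, 5.48 injured), close to the low-signal level of 5.44, and differed by -0.24 with 16 added before log2. Dync1i1 (5.08 uninjured, 5.19 injured) lay below the low-signal level. The near-identical Dynlt1 copies share 4 rows, with differences from -0.16 to -0.07, which cannot be split among them.

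The list of dynein regulators, which includes NudC-type cochaperones, was less uniform. Its median difference was 0.58, the value of Nudc, and 1 of the 7 measured genes was at least 2-fold higher, beside 4.14% of all measured genes. Nde1, which tethers the dynein regulator Lis1 to the motor and is needed in mitosis, was 7.56 uninjured and 8.92 injured, a difference of 1.36 (2.56-fold). The NudC-type cochaperones Nudcd2 (0.89), Nudcd1 (0.83) and Nudc (0.58) followed below 2-fold. The Lis1 gene itself, Pafah1b1, differed by -0.05, and Ndel1, the paralog of Nde1, by -0.14.

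Cargo adaptors, the coiled-coil proteins that bring dynein and dynactin together on a cargo, had a median of 0.05, and 16 of 18 were less than 2-fold apart; the other 2 are 11.1% of the list, beside 8.06% of all measured genes past 2-fold. Hook3, which links the motor to endosomes and the Golgi, was 9.39 uninjured and 8.19 injured, a difference of -1.19 (2.28-fold lower). Ccdc88a, the actin-binding protein girdin and a relative of the Hook adaptors, had a difference of 1.27, but its values of 4.21 and 5.48 straddle the low-signal level, and with dim values raised to that level the difference was 0.04. Akap9, a Golgi and centrosome scaffold, differed by -0.92 and the centrosomal adaptor Nin by 0.63. Hook1 carried the same value in both arrays, as did 156 of all measured genes.

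Proteins that bring dynein and dynactin to the kinetochore and the cortex in mitosis had a median of 0.75, and 3 of 8 were at least 2-fold higher with 0 lower, beside 4.14% higher among all measured genes. Spdl1, the kinetochore adaptor spindly, was 6.77 uninjured and 8.11 injured (1.35). Zwilch, of the complex that holds spindly on the kinetochore, was 6.89 and 8.24 (1.35), and Cenpf, which binds Nde1, was 7.83 and 9.11 (1.28). The partner of Zwilch, Kntc1, differed by 0.94. Numa1, the cortical anchor of the spindle, differed by -0.12.

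Proteins that ride growing microtubule ends, where dynactin is loaded, had a median of 0.01 over 9 measured genes, with 0 at least 2-fold higher and 2 lower, beside 3.92% lower among all measured genes. Clip4, of the CLIP family of microtubule-binding proteins, was 11.01 uninjured and 9.52 injured (-1.49), and the end-binding protein Mapre2 was 8.61 and 7.23 (-1.38). Their relatives Mapre3 (-0.28) and Clasp2 (0.48) were less than 2-fold apart, as were Mapre1 (0.09) and Clip1 (0.16).

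The second dynein of the cell, which moves cargo inside cilia, had a difference below 0 in each of its 5 measured genes, with 2 of 5 at least 2-fold lower and a median of -0.30. Among all measured genes 7962 of 19512 were below 0, and 3.92% were lower by 2-fold or more. Its heavy chain Dync2h1 was 7.03 uninjured and 5.65 injured (-1.38), and its light intermediate chain Dync2li1 was 6.84 and 5.81 (-1.03, and -0.86 with 16 added before log2). Tctex1d2 (-0.30) and Wdr34 (-0.13) were less than 2-fold apart. Whether this dynein differs from dynein 1 cannot be tested with 1 array in each condition. Axonemal dyneins, the motors of motile cilia, were near or below the low-signal level, with 7 of 20 measured, 0 of 7 past 2-fold and values between 3.82 and 6.25 over both arrays.

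Transport kinesins, which move cargo the opposite way, had a median of -0.26 over 16 measured genes, with 0 at least 2-fold higher and 1 lower, or 6.25% of the list beside 3.92% of all measured genes. This was Kif13b, 8.69 uninjured and 7.57 injured (-1.12), and Kif21a (-0.85), the kinesin adaptor Kifap3 (-0.84) and Kif1b (-0.70) came next. Kif5b, the conventional kinesin heavy chain, differed by 0.04.

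**Figure D3:**
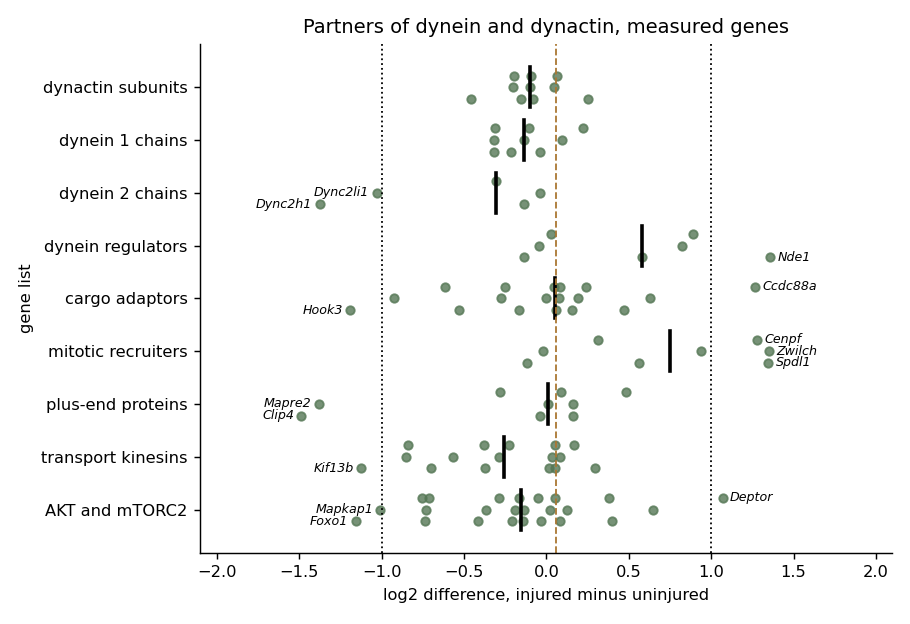
Log2 difference, injured minus uninjured (horizontal axis), of each measured gene (points) in 9 gene lists, with the list median as a black bar, the median of all measured genes dashed and 2-fold dotted; vertical offsets within a list only separate points. Dynactin and dynein 1 genes lie inside the 2-fold lines, while points outside them belong to regulators, adaptors, mitotic recruiters, plus-end proteins, dynein 2, kinesins and the AKT list.

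Genes of the AKT and mTORC2 pathway, which the Dynap protein is reported to act on, had a median of -0.16 over 24 measured genes, with 1 at least 2-fold higher and 2 lower. These 3 are 12.5% of the list, near the 8.06% of all measured genes that passed 2-fold. Deptor, an inhibitor of the mTOR kinase, was 6.04 uninjured and 7.11 injured (1.07, and 0.91 with 16 added before log2). Foxo1, a transcription factor that AKT inactivates, was 9.35 and 8.19 (-1.16), and Mapkap1, a core subunit of mTORC2, was 9.89 and 8.88 (-1.01, and -0.98 with 16 added). The regulatory subunit of PI3 kinase Pik3r1 differed by -0.76 and Rictor, another mTORC2 subunit, by -0.74, while Akt1 was 1.57-fold higher (0.65). Transcript levels do not measure AKT activity, which was not assayed here.

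On chromosome 18, the named genes nearest to Dynap did not share its difference. Of the 3 genes on either side in the RefSeq order, Rab27b and 4930503L19Rik have a row here. Rab27b, a GTPase of secretory granules, was 9.43 uninjured and 8.80 injured (-0.63), and 4930503L19Rik was below the low-signal level in both arrays (4.16 and 4.79). Farther out, Ccdc68 differed by 0.22, Poli by -0.36 and Mbd2 by -0.22. Row numbers follow the gene order for 98.8% of 683 consecutive named pairs on this chromosome, and the row numbered just before Dynap, which is unnamed here, went the other way: it was 7.66 uninjured and 4.77 injured, a difference of -2.89 (7.40-fold lower). The row numbered just after Dynap was dim in both arrays (4.03 and 4.11).

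**Figure D4:**
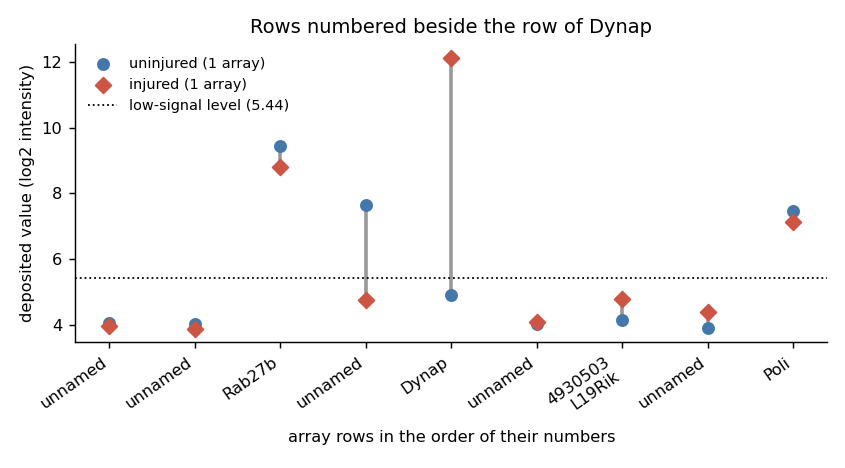
Deposited log2 intensity (vertical axis) of the row of Dynap and of the 4 rows numbered before and the 4 after it, in the uninjured (circles) and injured array (diamonds), with the low-signal level dotted. Dynap is bright only in the injured array, and the unnamed row beside it, from 7.66 down to 4.77, is above the level only in the uninjured array.

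The deposited values lie between 2.54 and 14.07, with medians of 5.44 injured and 5.43 uninjured. The corneal epithelial markers were above the low-signal level in both arrays, and 7 of 8 were measured. Of these, 1 was at least 2-fold higher and 3 were lower, beside 4.14% and 3.92% of all measured genes. Krt12 was 14.07 uninjured and 10.85 injured, Krt5 13.85 and 13.69, Krt14 higher by 2.23, and Aldh3a1 (-2.68) and Pax6 (-1.32) lower. Cdh1 (0.35) and Trp63 (-0.36) were less than 2-fold apart. Markers of other cells were read in both arrays as well. Of 9 leukocyte markers 7 were measured, with differences above 0 for 6 and a median of 0.20. Of all measured genes, 11394 of 19512 were above 0, and the median was 0.06. S100a9 was higher by 1.89 and Lyz2 by 0.87, and Itgam was lower (-1.55). Tyrobp (0.21) and Cd68 (0.20) differed by less than the SD of 0.242 between rows of a gene. The summed intensity of the leukocyte markers, 1963 uninjured and 1429 injured, rests on Itgam (10.26 and 8.72). The pan-leukocyte gene Ptprc was below the low-signal level in both (4.29 and 4.39). Of 7 stromal markers 5 were measured, with a summed intensity of 488 uninjured and 442 injured. Among them Dcn was 2.49-fold lower (-1.31), but its injured value of 4.77 lay below the low-signal level. Col1a1 (-0.12), Col1a2 (-0.13), Thy1 (0.04) and Ptgds (0.20) were less than 2-fold apart. The keratocyte gene Kera was dim in both arrays (3.55 and 3.52). Of 6 conjunctival markers all 6 were measured (9884 uninjured, 11197 injured in sum). At 2-fold 1 was higher (Krt19, 1.11) and 1 lower (Muc5ac, -1.26), beside 4.14% and 3.92% of all measured genes. Krt13 (12.06 uninjured, 11.77 injured) and Krt4 (11.85 and 11.98) were bright in both arrays. Spdef (0.07) and Agr2 (0.29) were less than 2-fold apart. Of 6 platelet and red cell markers 4 were measured, and their sum of 384 uninjured and 8796 injured rests on Ppbp, since Pf4 differed by 0.55. Of 6 motile ciliated cell markers 2 were measured, with sums of 150.4 uninjured and 157.5 injured. Their part in the values of Dynap was not tested.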

How the data were processed

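The 2 arrays, 1 injured and 1 uninjured, are given in 1 table of 65952 rows. The authors deposited log2 intensities. Agilent Feature Extraction 9.1 is the tool per the submitters' processing notes, whereas the RNA was labelled with biotin and rows are numbered as transcript clusters. How background was corrected, rows were summarised and arrays normalized, and on which build, was not given in the sources used here. No detection or saturation call was used. Values were kept as deposited, because the column medians differ by 0.0135.

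Rows were named from the platform annotation, with symbols updated through RefSeq (GRCm38.p6). A single gene was named on 31254 rows, 1492 rows with more than 1 gene were set aside, and 33206 rows have no name here. Genes with at least 1 value of 5.44 or more, the median of the table, were measured (19512), and the kept row with the highest mean stood for a gene. With 1 array in each condition no test was run, the call was a 2-fold difference, injured over uninjured, and the number of arrays limits the precision. Members and all 17 lists were chosen with earlier results of these data known. The text names every member, dynactin and dynein 1 gene, up to 4 measured genes of each other dynein, kinesin or AKT list by size of difference, the 5 nearest Dynap in difference, and its neighbours. Pafah1b1, Ndel1, Hook1, Numa1, Mapre1, Clip1, Kif5b, Rictor, Akt1, Ccdc68, Poli, Mbd2 and the markers named lie outside that rule and were chosen after their values were seen. The calculation was tested on simulated data. Python 3.11.15, pandas 2.3.3 and statsmodels 0.14.6 were used. The alternatives tried were a loess (span 0.3), equal 75th percentiles, equal medians, quantile normalization, 16 added before log2, no filter, a filter at the 75th percentile, the mean of a gene's rows and a 1.5-fold threshold.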

Additional observations from a re-analysis of the deposited data

How the results depend on the processing

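A value was taken as moved when it changed by more than 0.242, the SD between rows of a gene, and a count when it changed by over 1.5 times. Under the alternatives for each member, Dynap stayed between 6.60 (16 added) and 7.20, with 6.69 when dim values were raised to the low-signal level, and Dctn6 was -0.20 with the mean of its rows. Ppbp was above Dynap with 16 added (6.84) and with dim values raised (7.19). No member changed sign, 1 member was at least 2-fold higher and 0 lower under every alternative, and the dynactin median stayed between -0.14 and -0.09. With a 1.5-fold threshold, 2173 genes were higher and 1710 lower in place of 808 and 764. Among other named genes, Deptor (0.91), Dync2li1 (-0.86), Mapkap1 (-0.98) and Ccdc88a (0.81) were under 2-fold with 16 added, and the dynein 2 median was -1.38 with the 75th percentile filter, which leaves 1 gene. No paired analysis was possible because each condition has 1 array.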
